A study of Homo sapiens
Mus musculus with 3 samples.

Results

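The mouse glycolysis genes are 10 genes chosen by name from 60736 genes in the tables (27998 mouse and 32738 human). No measured value entered the rule, but the choice was made with earlier results of these data known. In pathway order they are Hk2 (ENSMUSG00000000628), Gpi1 (ENSMUSG00000036427), Aldoa (ENSMUSG00000030695), Tpi1 (ENSMUSG00000023456), Gapdh (ENSMUSG00000057666), Pgk1 (ENSMUSG00000062070), Pgam1 (ENSMUSG00000011752), Eno1 (ENSMUSG00000063524), Pkm (ENSMUSG00000032294) and Ldha (ENSMUSG00000063229). All 10 were found in every table, and all 10 passed the filter on low counts in every comparison. Their reads were examined in mouse wells of 3 single-cell libraries made with the ICELL8 cx, which places single cells in the nanowells of a chip and barcodes the RNA of each well. Every library came from an equal mixture of 4 established lymphocyte lines, the human T-cell lines Jurkat and TALL104 and the mouse lines EL4 (a T-cell lymphoma) and IVA12 (a B-cell hybridoma), with no treatment that differed between libraries. The official 3'DE kit was used for 2 libraries and a modified protocol, 3'DE-UMI, for 1 library, in which the barcoding primers are digested before amplification so that unique molecular identifiers (UMIs) mark single molecules.

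Glycolysis splits glucose into pyruvate in the cytosol and yields a small amount of ATP without oxygen. Hexokinase traps glucose as its phosphate, the next enzymes rearrange and cleave the sugar, and the later enzymes oxidise the fragments, make ATP and end in pyruvate, which lactate dehydrogenase turns into lactate to regenerate NAD. Activated lymphocytes and lymphoid tumours are known for heavy use of this route even when oxygen is present.

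After filtering, 922 mouse wells remained in the first 3'DE library, 773 in the second and 700 in 3'DE-UMI. Values for the libraries are given in this order throughout. They fell into 2 clusters made without any of the 10 genes, mouse cluster 1 with 475, 497 and 470 wells and mouse cluster 2 with 447, 276 and 230 wells. Both clusters were present in every library. No table pairing mouse identifiers with symbols was used here beyond the 10 members, so the markers of EL4 and IVA12 were not looked up and the clusters carry numbers instead of line names. Per the study's methods the mouse lines had been grown in different media (EL4 in RPMI, IVA12 in DMEM), so line and medium cannot be told apart in any difference between mouse cells of this mixture. Library totals were 35581264, 109702878 and 44883618 reads. Median mouse reads per well were 28442, 36889 and 29910 in cluster 1 and 20268, 21459 and 33590.5 in cluster 2. The libraries shared between 469 and 539 well barcodes pairwise, barcodes being printed on the chips in advance. Nothing in the labels says that libraries came from separate cultures, and the study's sample sheet gives 1 cell mixture for 3'DE library 2 and 3'DE-UMI and another for 3'DE library 1, so p-values measure only the spread between these libraries.

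The glycolysis genes took a larger part of the mouse reads in cluster 1 than in cluster 2 in each of the 3 libraries. In cluster 1 they held 0.668% and 0.800% of the mouse reads in the 3'DE libraries, and 1.33% in the 3'DE-UMI library. In cluster 2 they held 0.362%, 0.489% and 0.565%. Every cluster 1 value lay above every cluster 2 value. The means were 0.933% ± 0.352 and 0.472% ± 0.102 (SD, n = 3 libraries), and the difference within a library averaged 0.461 ± 0.265 percentage points (SD, n = 3). An exact sign-flip permutation test over 3 libraries cannot go below p = 0.25, so none was run. Counted as UMIs in the 3'DE-UMI library, the share was 1.77% of mouse UMIs in cluster 1 (27640 UMIs) and 0.783% in cluster 2 (7290 UMIs).

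**Figure D1:**
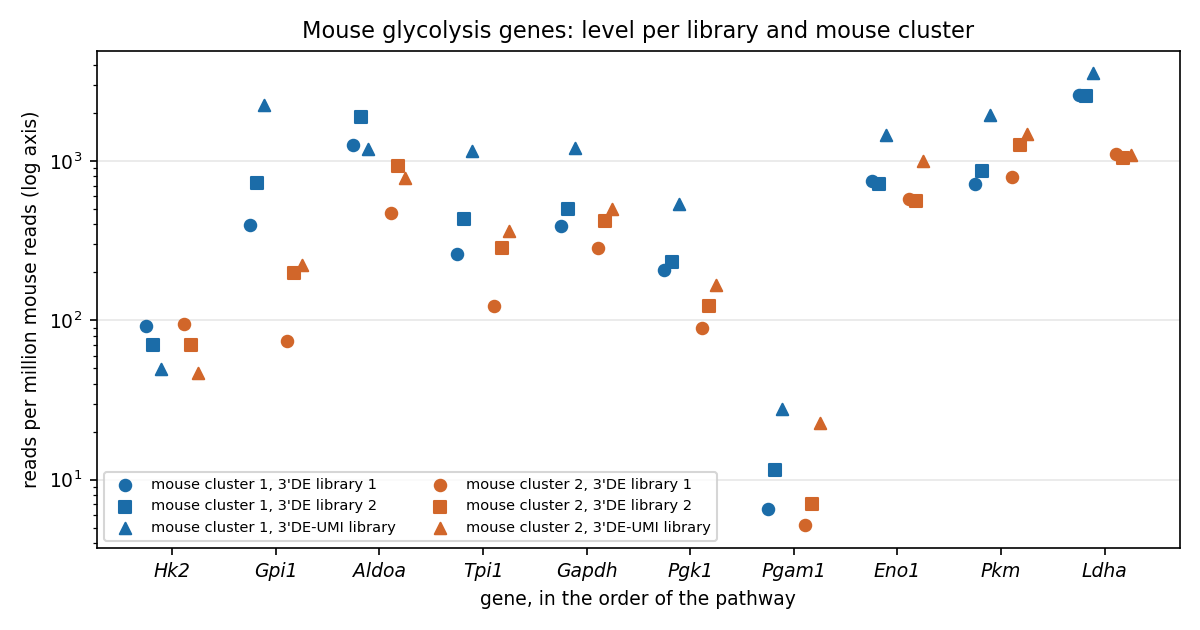
Level of each glycolysis gene in CPM, the reads of a gene scaled to a total of 1000000 mouse reads (log axis), with 1 point per library and mouse cluster, circles and squares for the 3'DE libraries and triangles for the 3'DE-UMI library. Ldha in cluster 1 sits at the top in all libraries, from 2567 to 3540 CPM, and Pgam1 at the bottom, from 5.17 to 27.6 over both clusters.

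Levels are given as CPM, the reads of a gene scaled to a total of 1000000 mouse reads of the cluster, in the order of the libraries above. Differences between clusters are log2 values of cluster 1 over cluster 2 from edgeR's quasi-likelihood test over the 3 libraries, with the standard error (SE) and a p adjusted over all 11269 mouse genes tested. Of the 10 glycolysis genes, 7 were called at an adjusted p under 0.05 and all 7 were higher in cluster 1. Of all mouse genes tested, 20.5% were called higher in cluster 1 and 40.4% in either direction, so a call alone was common in this comparison. The median log2 difference was 1.06 over the 10 genes and -0.029 over all genes tested.

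Among the enzymes of the preparatory phase of the pathway, Gpi1 differed most. Gpi1, which converts glucose 6-phosphate to fructose 6-phosphate, stood at 393, 728 and 2237 CPM in cluster 1 and at 74.3, 198 and 222 in cluster 2. Its clusters did not overlap, and the log2 difference was 2.76 (SE 0.29, edgeR adjusted p = 0.000195). Aldoa, the aldolase that cleaves the sugar bisphosphate into both triose phosphates, stood at 1265, 1879 and 1180 in cluster 1 against 473, 934 and 778 in cluster 2, again without overlap, with a log2 difference of 1.23 (SE 0.19, edgeR adjusted p = 0.00126). Tpi1, which interconverts the triose phosphates, had levels of 260, 429 and 1161 in cluster 1 and 122, 284 and 364 in cluster 2. Tpi1 was higher in cluster 1 within each library, although the clusters overlapped across libraries, and the difference was 1.34 (SE 0.23, edgeR adjusted p = 0.00239). Hk2, the hexokinase that commits glucose to the cell, was low in both clusters, at 92.6, 70.2 and 49.4 against 94.3, 69.4 and 46.9 CPM. Its cluster 1 level was 0.98 to 1.05 times its cluster 2 level within a library, and its log2 difference of 0.24 (SE 0.20) did not pass the test (edgeR adjusted p = 0.363, 95% interval -0.21 to 0.69).

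The enzymes of the payoff phase, which harvest energy from the trioses, split into called and uncalled genes. Gapdh, which oxidises glyceraldehyde 3-phosphate and reduces NAD, stood at 389, 497 and 1201 in cluster 1 and at 284, 419 and 497 in cluster 2, higher in cluster 1 within each library, with a difference of 0.88 (SE 0.23, edgeR adjusted p = 0.0177). Pgk1, the first ATP-making enzyme of the route, stood at 205, 231 and 534 against 89.3, 122 and 167 with no overlap, a difference of 1.49 (SE 0.21, edgeR adjusted p = 0.000845). Pgam1, a phosphoglycerate mutase, was the lowest gene of the set on the read scale, at 6.53, 11.5 and 27.6 against 5.17, 7.0 and 22.7. These levels rest on 45 to 500 reads per library and cluster, and the difference of 0.67 (SE 0.36, 95% interval -0.16 to 1.5) did not pass (edgeR adjusted p = 0.174). With UMI counts in place of reads for the 3'DE-UMI library, Pgam1 passed at a log2 difference of 0.91 (edgeR adjusted p = 0.0141), which gave 8 of 10 genes called, against 25% of all genes called higher.

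Eno1, the enolase that forms phosphoenolpyruvate, had a smaller difference. Its levels were 744, 721 and 1444 in cluster 1 and 573, 559 and 999 in cluster 2, higher in cluster 1 within each library by 1.29 to 1.45 times. The log2 difference was 0.65 (SE 0.17, edgeR adjusted p = 0.0149), and without 3'DE library 2 it no longer passed (edgeR adjusted p = 0.0756). Pkm, the pyruvate kinase gene whose isoforms could not be separated in counts per gene, behaved differently from its neighbours in the route, at 715, 868 and 1949 in cluster 1 and 796, 1258 and 1467 in cluster 2. It was lower in cluster 1 in both 3'DE libraries (0.90 and 0.69 times) and higher in the 3'DE-UMI library (1.33 times). Its log2 difference was 0.13 (SE 0.21, edgeR adjusted p = 0.672, 95% interval -0.36 to 0.62), and it turned to -0.095 with library totals as the only scaling and to -0.13 without the 3'DE-UMI library. Ldha, which makes lactate, was the highest gene of the set in cluster 1, at 2605, 2567 and 3540 against 1111, 1039 and 1081 in cluster 2. The groups did not overlap, and the difference was 1.64 (SE 0.19, edgeR adjusted p = 0.000316). Among all mouse genes Ldha held rank 44, 41 and 43 in cluster 1 and rank 166, 151 and 127 in cluster 2.

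**Figure D2:**
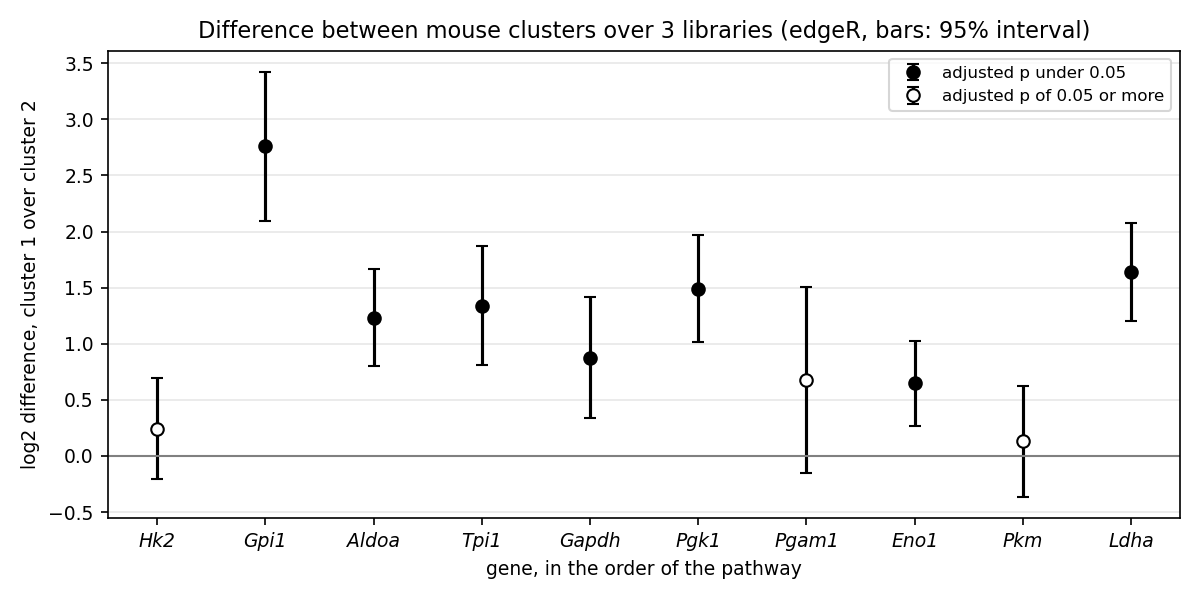
The log2 difference of each gene between mouse clusters (cluster 1 over cluster 2, edgeR over 3 libraries), with bars for the 95% interval and filled points for an adjusted p under 0.05. Hk2, Pgam1 and Pkm are the open points, with intervals that cross 0, and Gpi1 stands highest at 2.76.

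The scale of the comparison moved with the scaling of the sums. With library totals in place of TMM factors the median over all genes went from -0.029 to -0.25. The share of calls that were higher in cluster 1 went from 50.6% to 39.8%. In that fit 7 glycolysis genes were called, all higher, where 16.4% of 11269 genes were called higher and 41.1% in either direction. Wells of cluster 1 were deeper in both 3'DE libraries and shallower in the 3'DE-UMI library. With each well thinned to 5000 mouse reads before summing, 7 of 10 genes were again called, all higher. Of 8802 genes tested in that fit, 20.1% were called higher and 38.7% in either direction.

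In both clusters, glycolysis genes took a larger share of the mouse reads in the 3'DE-UMI library than in either 3'DE library. The shares were 1.33% against 0.668% and 0.800% in cluster 1, and 0.565% against 0.362% and 0.489% in cluster 2. The comparison of protocols rests on 3 sums with 1 residual degree of freedom, so the test takes the spread of 3'DE-UMI, with its single library, to be that of 3'DE. In cluster 1, 5 of the 10 genes were called, all higher in 3'DE-UMI, where 4.22% of 11789 genes were called higher and 11.5% in either direction. The median log2 difference (3'DE-UMI over 3'DE) was 1.16 over the 10 genes and -0.046 over all genes tested. The called genes were Gpi1 at 1.88 (SE 0.33, edgeR adjusted p = 0.00305), Tpi1 at 1.63 (SE 0.32, edgeR adjusted p = 0.00611), Gapdh at 1.31 (SE 0.30, edgeR adjusted p = 0.0125), Pkm at 1.17 (SE 0.29, edgeR adjusted p = 0.0187) and Pgk1 at 1.16 (SE 0.31, edgeR adjusted p = 0.0270). With wells thinned to 5000 reads 3 of the 10 genes were called, where 5.30% of 9203 genes were called higher and 13.1% in either direction. Pgk1 (log2 1.06, edgeR adjusted p = 0.0816) and Pkm (log2 1.08, edgeR adjusted p = 0.0825) were not called, with log2 differences close to those without thinning.

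The remaining genes of cluster 1 did not pass between protocols on the read scale. Pgam1 had a log2 difference of 1.48 (edgeR adjusted p = 0.0655) and Eno1 of 0.84 (edgeR adjusted p = 0.0750), both above each 3'DE library. Ldha had 0.32 (edgeR adjusted p = 0.487), 1.36 and 1.38 times the levels of the 3'DE libraries. Hk2 and Aldoa had values in the other direction, -0.86 (edgeR adjusted p = 0.168) and -0.54 (edgeR adjusted p = 0.281), and lay below both 3'DE libraries in cluster 1. Against 3'DE library 2 alone, which came from the same cell mixture, the log2 differences were 1.55 for Gpi1, 1.36 for Tpi1, 1.20 for Gapdh, 1.13 for Pgk1 and 1.09 for Pkm, with no test since no residual degree of freedom was left. Both 3'DE libraries themselves differed in cluster 1, from 0.76 times for Hk2 to 1.85 times for Gpi1 (library 2 over library 1). With library totals as the only scaling the share of calls higher in 3'DE-UMI went from 36.5% to 47.4% over all genes. In that fit 6 of the 10 genes were called, all higher, where 5.49% of 11789 genes were called higher and 11.6% in either direction.

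In cluster 2, 0 of 10 genes were called between protocols by edgeR and 0 by DESeq2. These tools called 2.41% and 2.59% of 11624 genes in either direction, and edgeR called 0.783% higher. The median log2 difference was 0.385 over the 10 genes, 7 of them positive, and -0.027 over all genes tested. At an unadjusted edgeR p under 0.05 there were 2 of the 10 genes, where 1765 of all 11624 genes passed the same limit. They were Pgam1 with a log2 difference of 1.69 (edgeR adjusted p = 0.177) and Hk2 with -1.06 (edgeR adjusted p = 0.269). Gpi1, at 222 CPM against 74.3 and 198, had a log2 difference of 0.54 with a 95% interval from -0.39 to 1.48. Both 3'DE libraries were 2.66 times apart for Gpi1 and 2.32 times apart for Tpi1 in cluster 2, so protocol differences of that size could not be told from the spread between libraries. Ldha levels in cluster 2 lay between 1039 and 1111 in all libraries, the narrowest range of the set in that cluster on a relative scale.

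**Figure D3:**
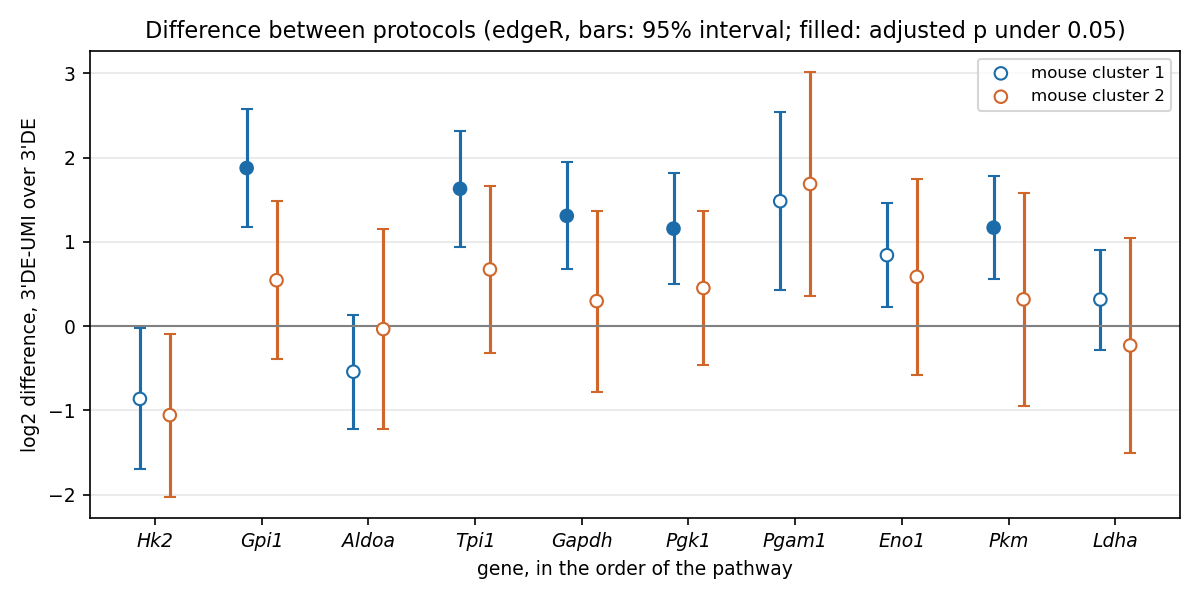
The log2 difference of each gene between protocols (3'DE-UMI over 3'DE, edgeR) in mouse cluster 1 and mouse cluster 2, with bars for the 95% interval and filled points for an adjusted p under 0.05. Filled points appear in cluster 1 for Gpi1, Tpi1, Gapdh, Pgk1 and Pkm, and every interval in cluster 2 is wider than its counterpart in cluster 1.

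A change of the cluster difference with the protocol was tested directly, by an interaction term over the 6 sums. Gpi1 was the only one of the 10 genes called (log2 1.29, SE 0.37, edgeR adjusted p = 0.0274), where 0.860% of 13252 genes were called with a positive and 2.14% with either sign. Gpi1 was 5.29 and 3.68 times higher in cluster 1 than in cluster 2 in the 3'DE libraries and 10.1 times higher with 3'DE-UMI. In UMI counts that ratio was 8.70 and the call was lost (log2 1.14, edgeR adjusted p = 0.795, with 0.0316% of genes called positive), as it was with library totals as the scaling (edgeR adjusted p = 0.0624). The interactions of Gapdh (1.02, edgeR adjusted p = 0.125), Tpi1 (0.93, edgeR adjusted p = 0.186) and Pkm (0.85, edgeR adjusted p = 0.232) did not pass. Calls in cluster 1 and their absence in cluster 2 therefore do not show a difference between clusters for the other called genes.

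UMIs of the 3'DE-UMI library gave the order of the genes by molecules. Each transcript is tagged at its 3' end in this method, so levels between genes were compared as UMI CPM (the UMIs of a gene scaled to a total of 1000000 mouse UMIs) and not divided by gene length. The exact 95% Poisson intervals cover counting error only. In cluster 1, Gapdh came first with 3488 UMI CPM (3396 to 3582), and its interval overlapped that of Ldha at 3392 (3302 to 3485). Gpi1 followed at 2682, then Eno1 at 2300 and Pkm at 2211, whose intervals overlapped, then Aldoa at 1425, Tpi1 at 1092 and Pgk1 at 955. Pgam1 at 78.1 and Hk2 at 67.8 were last, with overlapping intervals. In cluster 2 the leading genes were Pkm at 1620, Eno1 at 1608 and Gapdh at 1509, each overlapping the next. Ldha at 1046 and Aldoa at 929 followed, with overlapping intervals, then Tpi1 at 402. Pgk1 at 319 and Gpi1 at 308 came next, and their intervals overlapped. Hk2 at 44.0 and Pgam1 at 42.9 were again last, with overlapping intervals. Gpi1 thus held place 3 in cluster 1 and place 8 in cluster 2, where it could not be told from Pgk1 at place 7. It had 15.2% and 3.94% of the glycolysis UMIs.

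The order differed between reads and UMIs, and Gapdh moved most in cluster 1. By reads of the same library Gapdh came after Ldha, Gpi1, Pkm and Eno1 in cluster 1. It had 3.99 reads per UMI in cluster 1 and 3.60 in cluster 2, where the median over genes with at least 20 UMIs was 13.4 (6174 genes) and 12.8 (5349 genes). That placed Gapdh at percentile 3.58 and 3.33. Pgam1 had 4.10 and 5.78 reads per UMI, Pgk1 6.48 and 5.73, and Eno1 7.27 and 6.79. Ldha was nearer to the median at 12.1 and 11.3, as was Tpi1 at 12.3 and 9.92, and all 10 genes lay below the median in both clusters. Read and UMI tables came from different pipelines with different versions of the aligner. Gapdh is known for many near-identical pseudogene copies, and how either pipeline treated reads that match several places is not given in the sources used here, so the levels of Gapdh and of other members with such copies are uncertain and the part of these copies in the ratio was not tested.

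Detection per well is given as the share of wells with a read. With every well thinned to 5000 mouse reads, all thinned mouse wells had at least 1 read of the 10 genes. Human wells, which should hold no mouse RNA, were thinned to 5000 reads of both species and show the background of stray reads. Ldha was detected in 99.3%, 99.4% and 96.9% of cluster 1 wells and in 95.1%, 95.7% and 78.6% of cluster 2 wells, against 14.7%, 36.9% and 7.95% of human wells. Gpi1 was detected in 77.8%, 84.5% and 96.5% of cluster 1 wells and in 27.6%, 44.3% and 34.8% of cluster 2 wells, against 2.27%, 14.5% and 5.96% of human wells. Gpi1 showed the widest gap between clusters in each library, and its exact 95% intervals did not overlap. Hk2 was detected in 29.2%, 22.9% and 11.2% of cluster 1 wells and in 31.9%, 16.2% and 8.93% of cluster 2 wells. In human wells Hk2 appeared in 0.454% and 1.34% of wells of the 3'DE libraries and in 0 of 503 wells of the 3'DE-UMI library, which allows a share of up to 0.596% by a limit of 3 wells and of up to 0.731% by the exact 95% interval. Pgam1 was detected in 4.14%, 4.82% and 9.43% of cluster 1 wells and in 1.87%, 3.40% and 4.46% of cluster 2 wells, with intervals of the clusters that overlapped in each library. In human wells it appeared in 0.227%, 0.671% and 0 of 503 wells.

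**Figure D4:**
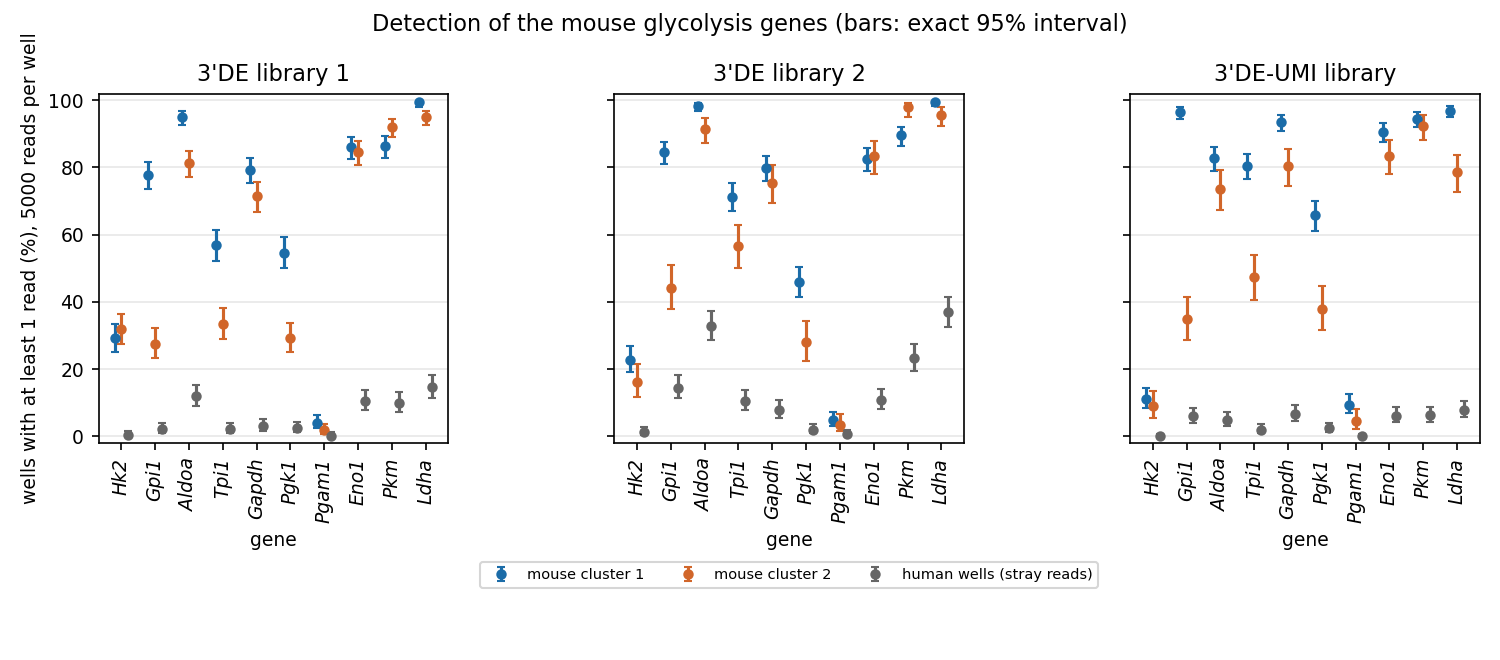
Percent of wells with at least 1 read of each gene, with 5000 reads per well, for mouse cluster 1, mouse cluster 2 and human wells of each library, with exact 95% binomial intervals that cover counting error only. Gpi1 shows the widest gap between clusters in every panel, and stray reads of Ldha reach 36.9% of human wells in 3'DE library 2.

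By UMIs, with no thinning, a cluster 1 well of the 3'DE-UMI library held on average 11.6 UMIs of Gapdh, 11.3 of Ldha and 8.91 of Gpi1, and 0.226 of Hk2. A cluster 2 well held 6.11, 4.23 and 1.25 of the first 3 and 0.178 of Hk2, although its median depth was larger (3225.5 UMIs against 2683.5). Gpi1 had a UMI in 96.6% of 470 cluster 1 wells, in 56.5% of 230 cluster 2 wells and in 10.1% of 557 human wells, whose median depth was 1371 UMIs of both species.

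Wells of cluster 1 varied in their glycolysis reads. The summed reads of the 10 genes per 5000 mouse reads had medians of 27, 35 and 59 in cluster 1 and 17, 23 and 24 in cluster 2. The range from the 5th to the 95th percentile in cluster 1 was 9 to 90 in the first 3'DE library, 12 to 109.6 in the second and 24 to 142 with 3'DE-UMI. In cluster 2 it was 6 to 34, 11 to 50.3 and 9 to 48.9. The coefficient of variation over wells was 0.807, 0.697 and 0.534 in cluster 1 and 0.473, 0.532 and 0.533 in cluster 2, so it was larger in cluster 1 in both 3'DE libraries and about equal in the 3'DE-UMI library. Reads of 1 molecule are amplified together, and how much of this spread lay between cells was not tested. The Spearman correlation of the summed reads with well depth lay between -0.14 and 0.086 over the 6 sets of wells.

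**Figure D5:**
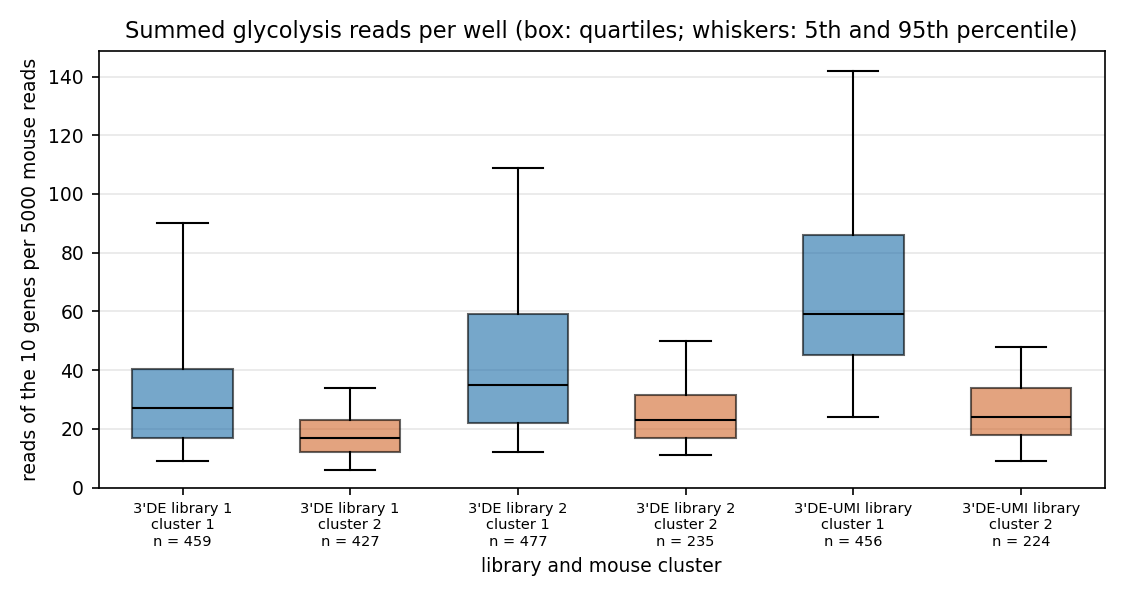
Summed reads of the 10 glycolysis genes per 5000 mouse reads of a well, by library and mouse cluster, with boxes for the quartiles, a line for the median and whiskers at the 5th and 95th percentiles. Cluster 1 medians of 27, 35 and 59 lie above the cluster 2 medians of 17, 23 and 24, and the upper whiskers of cluster 1 reach 90 to 142.

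Glycolysis genes varied together over wells of cluster 1 more than over wells of cluster 2, given here as a description over wells of the same library thinned to 5000 reads. The median Spearman rho over the 45 gene pairs was 0.28, 0.23 and 0.24 in cluster 1 and 0.045, 0.045 and 0.078 in cluster 2. Reads per gene were higher in cluster 1 for most of the set, and sparse counts lower a correlation, so these values do not separate less shared variation from fewer reads. Aldoa and Ldha were the closest pair in cluster 1 of both 3'DE libraries (rho of 0.59 over 459 wells and 0.63 over 477 wells), and Aldoa and Pkm in the 3'DE-UMI library (0.41 over 456 wells). Averaged over the 6 sets, Ldha (0.43), Aldoa (0.42), Pkm (0.41) and Eno1 (0.36) followed the sum of the other members most closely, and Hk2 (0.091) and Pgam1 (0.053), the genes with fewest reads, least. Outside the set, 893 mouse genes had a read in at least 20% of wells of every set. Those nearest to the summed glycolysis reads were ENSMUSG00000021831 and ENSMUSG00000025203, with a mean rho of 0.23 and 0.21. Their rho ranged from 0.023 to 0.49 and from 0.069 to 0.43 over the 6 sets. They were picked as the highest by this mean, and the median gene had -0.025.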

How the data were processed

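Per the labels, 3 libraries of 1 cell mixture design were measured, 2 by 3'DE and 1 by 3'DE-UMI, and groups were taken from the titles. The deposited values are counts. The authors made raw read counts per gene and well with STAR 2.7.0b (in the mappa software) and, for the 3'DE-UMI library, UMI counts with the Drop-seq tools and STAR 2.4.2a, on a combined hg19 and mm10 reference. The methods state that reads were downsampled, and whether the deposited tables came from those reads is not given in the sources used here. Depth and the treatment of reads that match several places could change the values of low genes and of genes with close copies.

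Wells were kept with at least 1000 reads and 200 genes, and called mixed when the minor species held at least 10%. Doublets within a species were not called. The wells had been imaged for single cells, yet 180, 175 and 36 of the 1635, 1432 and 1293 kept wells were mixed. Wells with cells of both mouse lines may therefore remain in the clusters, and their part was not tested. Mouse wells were clustered with scanpy 1.11.5 (10000 counts per well, log transformation, 1000 variable genes, 20 components, 15 neighbours, Leiden resolution 0.1). Mouse genes were divided into 2 sets by identifier, with the 10 members in the same set, and tests of a set used the wells as grouped by the other. The members entered no clustering, and both clusterings placed 99.8% of wells alike. Counts were summed per library and cluster and tested with edgeR 4.0.16 (filterByExpr, TMM, quasi-likelihood F-test, two-sided, Benjamini-Hochberg over all mouse genes tested, threshold 0.05). The library was the unit of replication and the block of the cluster comparison, since both clusters share each library. The interaction of cluster and protocol left 1 residual degree of freedom. The fits were also run on counts simulated from the fitted model itself, which cannot show whether that model holds for these libraries.

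All 10 members are named in every comparison, and outside them the genes most like their sum over wells. Members and lists were chosen with earlier results of these data known. Planned were also 4 lists (other glycolysis genes, pentose phosphate, pyruvate oxidation, regulators), cell type markers and a mitochondrial filter. They need mouse symbols for identifiers and were not analysed here, so the planned comparisons of line-like wells were made on numbered clusters. Alternatives were DESeq2 1.42.0, its size factors, library totals, no low-count filter, UMI counts, 5000 reads per well, a mixed-species limit of 5%, thinning to 5000 reads, another clustering, no replicate block and leaving out each library.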

Additional observations from a re-analysis of the deposited data

Results flagged for a closer look

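The difference of Gpi1 between mouse clusters was larger in the 3'DE-UMI library than in the 3'DE libraries, by 1.29 on the log2 scale (edgeR interaction test, adjusted p = 0.0274), and it was called in neither the fit with UMI counts nor the fit with library totals. The raw ratios of cluster 1 over cluster 2 were 5.29 and 3.68 in the 3'DE libraries, and 10.1 in the other library. The level of Gpi1 in the 3'DE-UMI library was 5.69 and 3.07 times that of 3'DE libraries 1 and 2 in cluster 1. In cluster 2 it was 2.99 and 1.12 times.

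The UMI table also held barcodes that the read table of the same library did not. There were 1543 of them, with 884 glycolysis UMIs among 66985 mouse UMIs (1.32%) and at least 1 such UMI under 486 barcodes. For comparison, the share in UMIs was 1.77% in mouse cluster 1 and 0.783% in mouse cluster 2. What these barcodes were was not tested.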

How the results depend on the processing

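No paired analysis of the protocols was possible because 3'DE-UMI has only 1 library. The cluster comparison used the library as a block, and with no replicate block it called 4 glycolysis genes (of 7) and 2982 genes in all (of 4557), with Tpi1, Gapdh and Eno1 not called. Leaving out each library in turn gave 6 to 7 glycolysis genes and 2822 to 5076 genes in all (2822 without 3'DE library 2, 3019 without 3'DE library 1). Pkm turned to -0.095 with library totals and ranged from -0.13 (without 3'DE-UMI) to 0.34 over the libraries left out, called in none. Between protocols, thinning to 5000 reads left 3 called glycolysis genes in cluster 1, where 5.30% of 9203 genes were called higher. UMI counts gave 7 in cluster 1, where 3.83% of 11250 genes were called higher, and 1 in cluster 2, where 2.05% of 11068 were. That setting compares UMIs of 1 library with reads of the others, so each gene's reads per UMI enters its protocol difference, and all 10 genes lay below the median reads per UMI. In cluster 2 Aldoa turned from -0.035 to 0.14 (library totals), 0.33 (UMI counts) and 0.019 (thinned), and Ldha from -0.23 to 0.0077 (library totals), none called. For the interaction, library totals and UMI counts each left 0 called glycolysis genes in edgeR. At an unadjusted edgeR p under 0.05 there were 5 and 3, where 1600 of 13252 and 524 of 12668 genes passed the same limit. In the main fit there were 4, where 1676 of 13252 genes passed. DESeq2 on the reads with its own size factors called 1 glycolysis gene for the interaction. All genes called went from 283 to 48 (DESeq2), 130 (library totals), 7 (UMI counts) and 151 (thinned). The interaction of Pgam1 turned from -0.16 to 0.47 (UMI counts) and 0.091 (thinned). The median share of wells with a member moved with depth. For 2000 reads and all reads it was 48.6% and 96.0% (cluster 1) and 30.7% and 77.0% (cluster 2) in 3'DE library 1, against 78.5% and 52.5% at 5000 reads. In 3'DE library 2 it was 55.4% and 91.9%, and 44.0% and 81.7%, against 81.2% and 66.0%. In the 3'DE-UMI library it was 75.1% and 91.2%, and 42.0% and 74.8%, against 86.6% and 60.5%. The summed share kept its direction under all of its alternatives. The mitochondrial filter was not run, nor were protocol comparisons without the 3'DE-UMI library. With 1 library of 3'DE-UMI, a protocol difference and a library difference cannot be told apart, and other causes were not tested.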

Other observations

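Wells with reads of both species, left out of every comparison, held glycolysis reads at 0.655%, 1.08% and 1.13% of their mouse reads in the first 3'DE library, the second and 3'DE-UMI (180, 175 and 36 wells). In human wells the stray mouse reads carried a glycolysis share of 0.657%, 1.08% and 1.15%, which lay between the shares of mouse clusters 1 and 2 in the first 3'DE library and 3'DE-UMI and above both in 3'DE library 2. Glycolysis genes of the mouse made up 0.0195%, 0.0271% and 0.0154% of all reads in those human wells.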
